A study of Mus musculus with 27 samples.

Results

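Day and night libraries of the suprachiasmatic nucleus (SCN), the hypothalamic nucleus that holds the central circadian clock of mammals, were compared for their mature microRNAs (miRNAs). Of 27 small-RNA libraries in the study, 11 belonged to an SCN time course. The libraries were divided by their labelled zeitgeber time (ZT) into 6 day libraries (ZT2, ZT6, ZT10, ZT26, ZT30 and ZT34) and 5 night libraries (ZT14, ZT18, ZT22, ZT38 and ZT42). The comparison asks which miRNAs of the clock nucleus differ in level between the light and the dark phase. All 11 came from C57BL/6 mice with no allele or agent named, dissected tissue was snap-frozen, and total RNA was taken with Trizol reagent. Each time has 1 library, and the labels give neither the light schedule nor the age or sex of the mice. Nothing says how many mice went into a library or whether libraries came from separate mice, so that p-values here measure only the spread between libraries. ZT is by convention counted from lights on, and the times reach past 24 h. ZT2 to ZT22 are called the first 24 h (3 day and 3 night libraries) and ZT26 to ZT42 the second 24 h (3 day and 2 night libraries). Of 756 miRNAs listed in the course, 357 reached a level of 10 CPM in at least 3 of the 11 libraries and were tested. CPM is the read number scaled to a common library total, here the deposited value divided by 10.

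miRNAs are short RNAs that are cut from hairpin precursors and guide Argonaute proteins to messenger RNAs, which they silence through pairing with the seed, the bases near the 5′ end of the miRNA. In clock tissue, the transcription and translation loop of the Clock, Bmal1, Per and Cry genes drives daily rhythms, and miRNAs are known to tune its speed and its response to light. miR-219 and miR-132 were the first described in the mouse SCN, where miR-219 was linked to period length and miR-132 to light-induced clock resetting. let-7 miRNAs, guides that accumulate as neurons mature, are among the most abundant in brain.

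The sequences below are those on which the results turn, from RefSeq for mouse (GRCm38.p6), written 5′ to 3′ with the seed (bases 2 to 8) in capitals. RefSeq held a mature sequence for 305 of the 357 tested miRNAs (85.4%). The let-7 family guides are shown because all 9 tested share 1 seed and all 9 rose by day in the first 24 h:
let-7a-5p: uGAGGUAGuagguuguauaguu
let-7b-5p: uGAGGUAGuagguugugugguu
let-7c-5p: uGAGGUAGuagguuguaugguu
let-7d-5p: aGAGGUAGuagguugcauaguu
let-7e-5p: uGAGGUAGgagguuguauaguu
let-7f-5p: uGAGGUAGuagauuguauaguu
let-7g-5p: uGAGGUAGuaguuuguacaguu
let-7i-5p: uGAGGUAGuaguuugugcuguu
miR-98-5p: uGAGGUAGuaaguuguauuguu

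Counted from 1 at the 5′ end of let-7a-5p, let-7c-5p differs from it by A19G, let-7e-5p by U9G, let-7f-5p by G12A, let-7b-5p by A17G and A19G, and let-7i-5p by G12U, A17G, U18C and A19U. With 1 to 4 bases differing from let-7a-5p in guides of 22 bases, reads may have been shared between members. The levels of single let-7 members are therefore uncertain. The next set holds the miRNAs whose day and night libraries did not overlap, with the partner arm of the first (miR-379-5p), and the miRNAs outside the let-7 family whose day-night difference itself differed between the first and the second 24 h:
miR-379-3p: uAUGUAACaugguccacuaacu
miR-379-5p: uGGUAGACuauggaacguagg
miR-339-3p: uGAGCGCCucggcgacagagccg
miR-99b-5p: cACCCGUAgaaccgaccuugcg
miR-221-3p: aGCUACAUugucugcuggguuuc
miR-222-3p: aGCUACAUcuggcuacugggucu
miR-34b-3p: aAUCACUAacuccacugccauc
miR-770-3p: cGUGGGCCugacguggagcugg

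miR-221-3p and miR-222-3p share a seed, and their precursors start 599 bases apart on the X chromosome, whereas the other 6 have seeds of their own within this set. The annotated starts of miR-99b and let-7e lie 158 bases apart on the plus strand of chromosome 17 (miR-99b-5p at chr17:17830194-17830215 and let-7e-5p at chr17:17830366-17830387, GRCm38), both in introns of Spaca6. miR-379 lies at the start of the imprinted miR-379 to miR-410 cluster (chr12:109709060-109709125, plus strand), miR-770 in an exon of the imprinted long non-coding RNA Meg3 (miR-770-3p at chr12:109563744-109563765, plus strand), and miR-339 in an intron of 3110082I17Rik (miR-339-3p at chr5:139369673-139369695, minus strand).

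The spacing of low deposited values gave an estimated depth of 2601389 (ZT10) to 5127285 (ZT26) reads per library, and 3 reads, the limit that a count of 0 allows, correspond to 0.585 to 1.15 CPM. These limits cover counting error only. Depth averaged 3.73e+06 reads in day and 3.63e+06 in night libraries (exact permutation test, two-sided p = 0.857), and listed miRNAs averaged 585 and 566 (exact permutation test, p = 0.238; the smallest p among the 462 splits is 0.00433). The 10 most abundant miRNAs held 62.6% to 71.8% of the signal by day and 69.4% to 72.0% by night. In a principal component analysis, ZT2, ZT6, ZT10 and ZT26 stood apart from the other 7 libraries, so the day-night differences are given below with and without them. The tissue and the course were normalised separately, and levels set across them were not tested. miR-200b-3p, which the SCN tissue libraries of the study held at 271 to 324 CPM and hypothalamus at 39.0 to 63.1, had 1.30 to 32.9 CPM along the course. miR-182-5p had 15.3 to 139 CPM against 275 to 293 in SCN tissue and 85.1 to 88.5 in hypothalamus. Both were thus below SCN tissue in every library of the course, and miR-200b-3p was below hypothalamus as well. Oligodendrocyte miR-338-3p, at 406 to 954 CPM along the course, was nearer to SCN tissue (387 to 516) than to hypothalamus (2248 to 2657). Oligodendrocyte miR-219-5p, at 8.3 to 33.2 CPM, lay above SCN tissue (3.3 to 7.5) and below hypothalamus (82 to 151.2) in every library of the course. In dissected tissue, a lower share of some cell type and a lower miRNA level per cell cannot be told apart.

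No miRNA passed the test between day and night. limma called 0 of 357 miRNAs (0%) at an adjusted p of 0.05, with a smallest adjusted p of 0.683, and 20 (5.6%) had an unadjusted p under 0.05, of which 16 (4.48%) were higher and 4 (1.12%) lower by day. The median difference was 0.04 on the log2 scale, and 197 miRNAs (55.2%) lay above 0. The 95% interval of a difference, not adjusted for the number of tests, reached a median of 0.59 log2 units to either side. For the typical miRNA, smaller differences could thus not reach an unadjusted p under 0.05. The adjusted threshold is stricter, so that larger differences could also go uncalled. Differences were below 0.5 log2 units in 84.9% of the tested miRNAs, and the widest was -1.43 for miR-141-3p, an epithelial miRNA of the miR-200 family that stood at 0.3 to 22.6 CPM by day and 1 to 20.8 CPM by night.

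Day and night libraries did not overlap for 2 of 357 miRNAs (0.56%), and for 0 after quantile normalisation. miR-339-3p held 31.3, 30.6 and 45.7 CPM at ZT2, ZT6 and ZT10 and 32.5, 52.9 and 41.3 CPM at ZT26, ZT30 and ZT34 by day. At night it held 54.1, 62.6 and 69.7 CPM at ZT14, ZT18 and ZT22 and 56.6 and 53.7 CPM at ZT38 and ZT42. Every day library lay below every night library, with ZT30 (52.9 CPM) next to the lowest night libraries, ZT42 and ZT14. The log2 difference was -0.63 (SE 0.22, 95% interval -1.09 to -0.16, limma unadjusted p = 0.0116, adjusted p = 0.683). It was -0.81 in the first and -0.41 in the second 24 h, a shared sign that groups without overlap fix in advance. Its other arm, miR-339-5p, gave 0.14 (unadjusted p = 0.71).

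miR-379-3p was the only miRNA with every day library above every night library. It held 112, 124 and 97.2 CPM at ZT2, ZT6 and ZT10 and 77.2, 87.0 and 77.6 CPM at ZT26, ZT30 and ZT34 by day. The night libraries held 68.8, 70.3 and 62.7 CPM at ZT14, ZT18 and ZT22 and 72.9 and 74.9 CPM at ZT38 and ZT42. The day libraries of the first 24 h were the highest, and those of the second 24 h cleared the night libraries by a few CPM. The log2 difference was 0.43 (SE 0.20, 95% interval 0.01 to 0.85; limma unadjusted p = 0.0437, adjusted p = 0.683), with 0.72 in the first and 0.12 in the second 24 h. The more abundant arm of the same hairpin, miR-379-5p, differed by 0.61 (unadjusted p = 0.0352), while miR-411-3p, which shares the seed of miR-379-3p and whose precursor starts 1115 bases away, gave 0.19 (unadjusted p = 0.333).

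**Figure D1:**
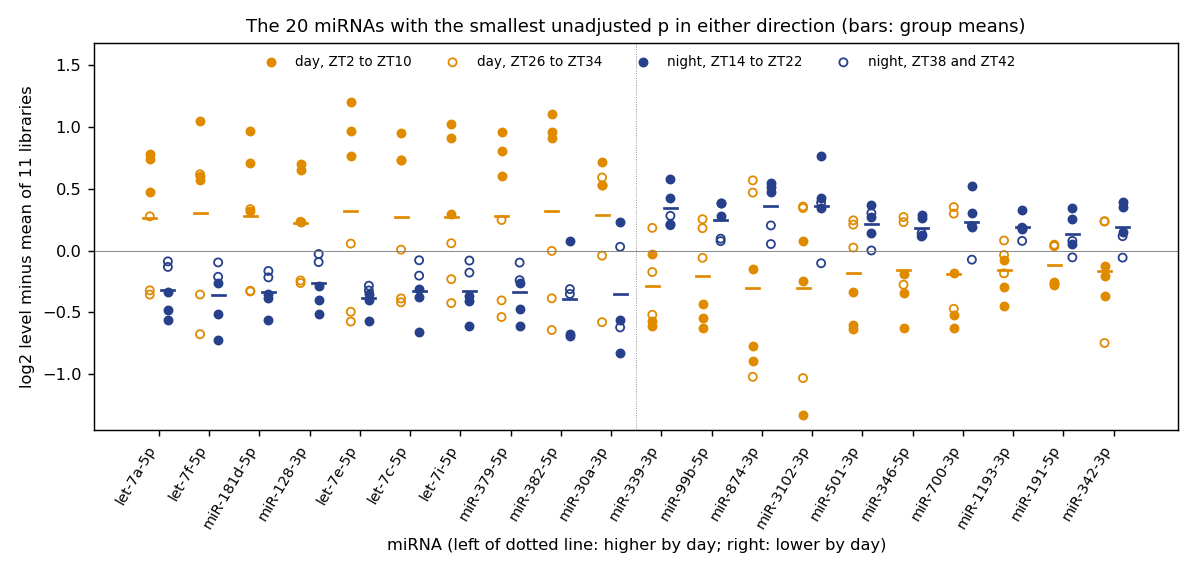
Levels of the 20 miRNAs with the smallest unadjusted p in either direction (10 higher and 10 lower by day) among those averaging at least 50 CPM in the higher group; the vertical axis is the log2 level minus the mean of the 11 libraries, day (orange) left of night (blue), filled points for the first 24 h, open points for the second 24 h and bars for group means. In most of the miRNAs left of the dotted line the filled orange points lie above all others, while most open orange points fall among the night libraries; none of the 20 passed an adjusted p of 0.05.

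The let-7 family made up much of the list with small unadjusted p. let-7 guides had an unadjusted p under 0.05 in 7 of 9 tested members, against 5.6% of all miRNAs, each of them higher by day, and the median difference was 0.60 log2 units, against 0.04 over all miRNAs. let-7a-5p held 16670.5, 13891 and 17173 CPM at ZT2, ZT6 and ZT10 and 12104, 7995 and 7807 CPM at ZT26, ZT30 and ZT34 by day. At night it held 6784, 7901 and 7147 CPM at ZT14, ZT18 and ZT22 and 9404 and 9117 CPM at ZT38 and ZT42. The first-day libraries and ZT26 lay above all night libraries, and ZT30 and ZT34 lay among them. The day mean was 12607 ± 4088 CPM and the night mean 8071 ± 1163 CPM (SD, n = 6 and 5), a log2 difference of 0.59 (SE 0.21, 95% interval 0.13 to 1.04; limma adjusted p = 0.683).

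Other let-7 members differed by like amounts at their own levels. let-7f-5p, the most abundant by day, averaged 16779.9 ± 6733 CPM by day and 9903 ± 1669 CPM by night, let-7c-5p 14684 ± 5859 and 9141 ± 1321 CPM, and let-7e-5p 3825 ± 1879 and 2101 ± 157 CPM (SD, n = 6 and 5). Their log2 differences were 0.66, 0.59 and 0.71, and that of let-7i-5p was 0.60. The summed level of 11 let-7 family guides, 9 of them tested, was 85628 to 99109 CPM in the first-day libraries, against 37755 to 39839 CPM in the first-night libraries, and 38968 to 59187 CPM in the second-day libraries, against 47657 to 47859 CPM in the second-night libraries. The groups stood apart in the first 24 h and overlapped in the second.

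**Figure D2:**
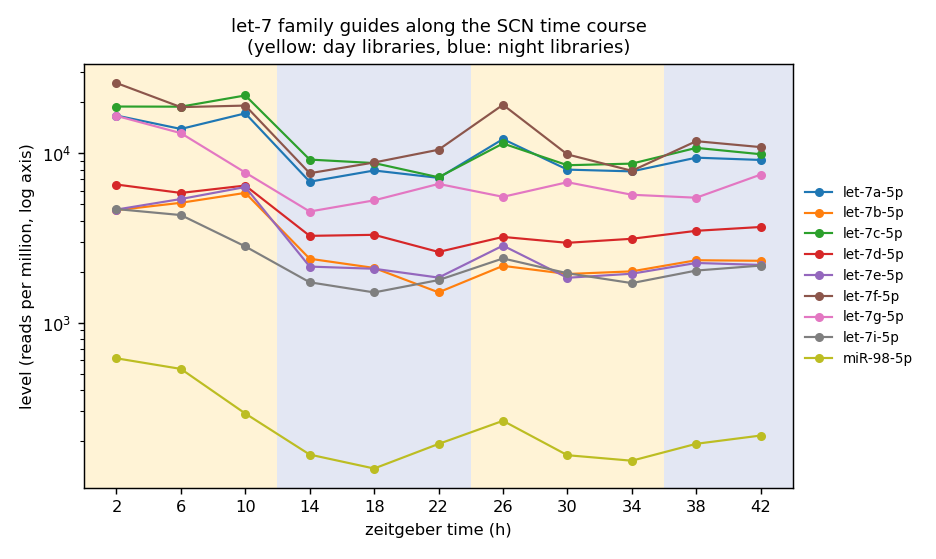
Levels of the 9 tested let-7 family guides in each library (CPM, log axis) against zeitgeber time, with 1 library per time; yellow bands mark day and blue bands night libraries. All 9 lines are high at ZT2, ZT6 and ZT10 and drop at ZT14, and at ZT26 all but let-7b-5p, let-7d-5p and let-7g-5p lie above every night library, which none does at ZT30 or ZT34.

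Outside the let-7 family, the miRNAs higher by day with the smallest unadjusted p were miR-181d-5p, miR-128-3p, miR-379-5p, miR-382-5p and miR-30a-3p. miR-128-3p, a neuronal miRNA made from introns of R3hdm1 and Arpp21, held 10588, 10198 and 7645 CPM at ZT2, ZT6 and ZT10 and 7641, 5420.4 and 5497 CPM at ZT26, ZT30 and ZT34 by day. The night libraries held 4548, 5326 and 4930.0 CPM at ZT14, ZT18 and ZT22 and 6375 and 6094 CPM at ZT38 and ZT42. ZT30 and ZT34 fell among the night libraries, and the log2 difference was 0.48 (SE 0.20, 95% interval 0.07 to 0.90; limma unadjusted p = 0.0241, adjusted p = 0.683). Its passenger arms miR-128-1-5p (0.28) and miR-128-2-5p (0.55) had unadjusted p of 0.442 and 0.0878.

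miR-181d-5p, a member of the miR-181 family, averaged 171 ± 60.8 CPM by day and 106 ± 11.2 CPM by night (SD, n = 6 and 5; log2 0.61, limma adjusted p = 0.683). miR-181c-5p, which has the same seed and a precursor that starts 169 bases away, differed by -0.10 (unadjusted p = 0.669). miR-379-5p (318 ± 126 CPM by day and 195 ± 27.0 CPM by night) and miR-382-5p (364 ± 174 and 203 ± 46.1 CPM) both come from the imprinted miR-379 to miR-410 cluster and differed by 0.61 and 0.71. That cluster had 2 of 32 tested members with an unadjusted p under 0.05, against 5.6% of all miRNAs, and a median of 0.05, close to the 0.04 over all miRNAs. In the first 24 h 5 of its 32 members rose and 0 fell, against 11.8% and 1.96% of all miRNAs. With median-ratio scaling 2 rose and 2 fell, against 25 and 12 of all 357 miRNAs. Quantile normalisation also gave 2 rises and 2 falls, against 23 and 18 of all 357. miR-30a-3p averaged 59.6 ± 17.5 CPM by day and 38.1 ± 12.4 CPM by night (log2 0.64), while the far more abundant arm miR-30a-5p gave 0.03.

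Lower by day at an unadjusted p under 0.05 were miR-339-3p, described above, miR-99b-5p, miR-874-3p and miR-3102-3p. miR-99b-5p, a member of the miR-99 and miR-100 family known for targeting Mtor, held 19304, 22152 and 20423 CPM at ZT2, ZT6 and ZT10 and 28642, 35560.1 and 33810.3 CPM at ZT26, ZT30 and ZT34 by day. At night it held 38880.3, 36216 and 38955 CPM at ZT14, ZT18 and ZT22 and 31886 and 31447 CPM at ZT38 and ZT42. The first-day libraries and ZT26 lay below all night libraries, and ZT30 and ZT34 lay above the second-night ones. The log2 difference was -0.45 (SE 0.17, 95% interval -0.81 to -0.08; limma unadjusted p = 0.0186, adjusted p = 0.683).

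miR-874-3p averaged 3124 ± 1532 CPM by day and 4501 ± 653 CPM by night (SD, n = 6 and 5; log2 -0.66, 95% interval -1.24 to -0.08, limma adjusted p = 0.683), and miR-3102-3p 252 ± 108 and 372 ± 77.2 CPM (log2 -0.67). In miR-874-3p the day libraries split. ZT2, ZT6, ZT10 and ZT26 held 2037, 3145, 1873 and 1715 CPM, below all night libraries, and ZT30 and ZT34 held 4817 and 5158 CPM. The next in order, miR-501-3p, miR-346-5p, miR-700-3p, miR-1193-3p, miR-191-5p and miR-342-3p, had log2 differences of -0.25 to -0.42 and unadjusted p of 0.0592 to 0.0732. Of these, miR-191-5p is among the 10 most abundant, with 37893 ± 4401 CPM by day and 44944 ± 5036 CPM by night (SD, n = 6 and 5), and miR-346-5p, made from an intron of the glutamate receptor gene Grid1, averaged 8267 ± 2002 and 10227 ± 574 CPM.

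Within the first 24 h, taken alone, miRNAs passed the test between day and night, and within the second none did. In the first 24 h limma called 49 of 357 miRNAs (13.7%), 42 (11.8%) higher and 7 (1.96%) lower by day, with 31 rises and 2 falls beyond 2-fold. Of all 357, 225 (63%) lay above 0 and 103 (28.9%) had an unadjusted p under 0.05. Within the second 24 h it called 0, with 0 at an unadjusted p under 0.05 (2 after quantile normalisation and 1 with median-ratio scaling). In the first 24 h the day libraries are also the 3 earliest of the course, so that light phase and position in the course cannot be told apart there. The median of all miRNAs in the first 24 h was 0.22 log2 units above 0 as deposited and 0.03 with median-ratio scaling, which called 37 miRNAs (25 higher and 12 lower by day), 32 of them among the 49. Quantile normalisation called 41 (23 higher and 18 lower). Leaving out 1 library gave 23 (without ZT22) to 51 (without ZT2) calls, with 28 without ZT18 and 32 without ZT6.

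Of the 49 miRNAs called in the first 24 h, 10 had a difference of the same sign in the second 24 h, 6 of 42 rises and 4 of 7 falls. Of all 357, only 109 (30.5%) lay above 0 in the second 24 h. The median of all was -0.10 there as deposited and 0.01 with median-ratio scaling, so that these sign counts depend on the scaling. The median absolute difference of the 49 was 1.12 log2 units in the first 24 h and 0.13 in the second, where the widest was 0.53. Day and night libraries of the first 24 h did not overlap for 48 of the 49, against 125 of all 357 (35%). The 49 were called on these same libraries, so that their separation is largely fixed by the choice. Those of the second 24 h did not overlap for 32 of 357 (8.96%). In 34 of the 42 rises, the 3 first-day libraries lay above all 8 other libraries of the course, as they did in 17.1% of all 357 miRNAs. These miRNAs were called on the first-day libraries, so that this position is largely fixed by the choice and is a description. ZT26 lay above all night libraries in 13 of the 42 rises (15.4% of all miRNAs) and below all of them in 6 of the 7 falls (45.1% of all). ZT30 or ZT34 lay above all night libraries in 2 of the rises (23.8% of all miRNAs) and below all of them in 0 of the falls (16.2% of all). The night libraries ZT14, ZT18 and ZT22 were used in calling the 49. That choice favours ZT26, ZT30 and ZT34 lying beyond them in the called direction, so that these counts too are a description. The first-day libraries also listed more miRNAs (562 to 635) than the first-night ones (553 to 561), and their 10 most abundant miRNAs held less of the signal (62.6% to 69.0%, against 70.8% to 72.0%). The part of this in the calls was not tested.

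**Figure D3:**
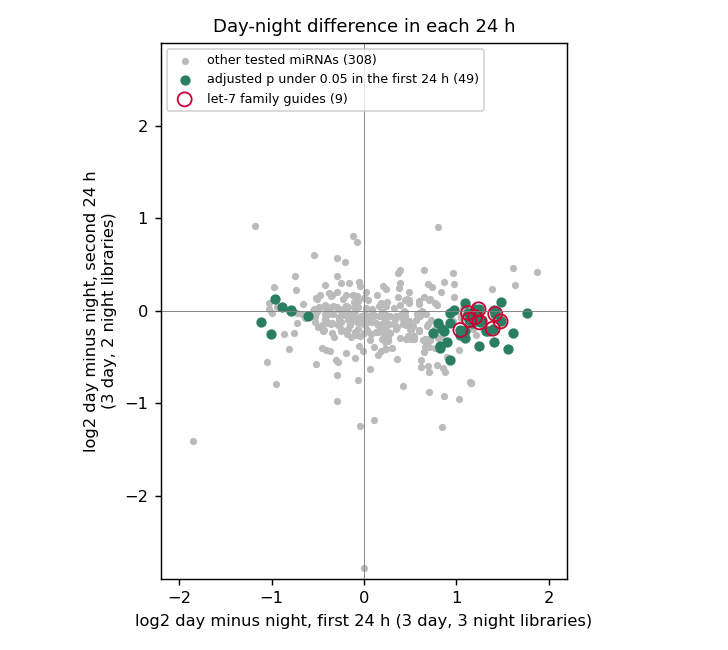
Log2 difference day minus night of each of the 357 tested miRNAs in the first 24 h (horizontal axis, 3 day and 3 night libraries) and the second 24 h (vertical axis, 3 day and 2 night libraries); green points had a limma adjusted p under 0.05 in the first 24 h and red rings mark the 9 let-7 family guides. The 49 green points spread from -1.12 to 1.77 along the horizontal axis and stay within 0.53 of 0 on the vertical axis.

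All 9 tested let-7 guides rose by day in the first 24 h, also under median-ratio scaling and quantile normalisation, with a median log2 difference of 1.24 (1.05 with median-ratio scaling), against 0.22 over all miRNAs. let-7e-5p had 4646, 5362 and 6312 CPM at ZT2, ZT6 and ZT10, against 2141, 2079 and 1844 CPM at ZT14, ZT18 and ZT22 (log2 1.42, limma adjusted p = 0.000591). In the second 24 h it had 2847, 1839.5 and 1943 CPM by day, against 2249 and 2189.7 CPM by night (log2 -0.03). miR-98-5p rose most within the family (log2 1.48) and let-7d-5p least (1.04), and let-7d-3p, the other arm of the let-7d hairpin, rose by 1.40.

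Members of the same seed family rose together in 4 further cases in the first 24 h. Only seeds with at least 2 called members were looked at, and their share of all tested seeds was not counted. In the miR-125 (3 tested), miR-30 (5) and miR-29 (4) families 0 members were called in the first 24 h as deposited or with median-ratio scaling. With quantile normalisation 1 of the 5 miR-30 members fell, against 18 falls among all 357 miRNAs. miR-7a-5p and miR-7b-5p, hypothalamic miRNAs, had log2 differences of 1.04 and 1.07 (limma adjusted p = 0.0299 and 0.0267), and neither was called with median-ratio scaling (adjusted p = 0.0761 and 0.0623). miR-7a-5p held 40337, 26371 and 13077 CPM at ZT2, ZT6 and ZT10, against 10000.2, 11557 and 13929 CPM at ZT14, ZT18 and ZT22, so that ZT10 lay below ZT22. miR-221-3p (log2 1.28) and miR-222-3p (1.09) rose as well, as did miR-103-3p (0.83) with miR-107-3p (0.93) and the passenger arms miR-30c-1-3p (1.41) with miR-30c-2-3p (1.24). Of these 6, miR-103-3p, miR-107-3p and miR-30c-1-3p were not called with median-ratio scaling. The neuronal miR-9-5p (1.17) and miR-129-5p (1.2), both called under either scaling, held 5666 ± 2438 and 386 ± 54.1 CPM in the first-day libraries and 2379 ± 243 and 167 ± 18.2 CPM in the first-night libraries (SD, n = 3 each). Of the 16 tested neuronal brain miRNAs, 3 rose and 13 were not called in the first 24 h, against 11.8% rises among all miRNAs. The list's median was 0.31, against 0.22 over all miRNAs, and its lowest difference was -0.67. Its counts were also 3 rises and 0 falls with median-ratio scaling, against 25 and 12 of all 357. Quantile normalisation gave 3 and 0 as well, against 23 and 18 of all 357.

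The widest called rise of the first 24 h was that of miR-34b-3p, which is known from cells with many cilia. It held 288, 444 and 429 CPM at ZT2, ZT6 and ZT10, against 104, 138 and 97.1 CPM at ZT14, ZT18 and ZT22 (log2 1.77, limma adjusted p = 0.000696), and 79.9, 87.6 and 86.7 CPM at ZT26, ZT30 and ZT34, against 72.0 and 104 CPM at ZT38 and ZT42 (log2 -0.03). All 3 first-day libraries exceeded every other library. The summed markers of choroid plexus and ciliated cells, which include miR-34b-3p, held 4783 to 6089 CPM in the first-day and 4105 to 4736 CPM in the first-night libraries. In the second 24 h they held 3651 to 4164 CPM by day and 4149 to 4773 CPM by night. Within the first-day libraries the sum was lowest at ZT6 (4783 CPM), where miR-34b-3p was highest. miR-449a-5p, a defining miRNA of ciliated cells, was not listed in 8 of 11 libraries. Of that list, 1 of the 4 tested members rose, against 11.8% of all miRNAs, and 3 were not called, and their part in the result was not tested. Next came miR-770-3p (log2 1.61) and miR-122-5p (1.55), of which miR-122-5p, known from liver, held 22.8, 30.9 and 46.8 CPM by day, against 11.4, 12.5 and 9 CPM by night.

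The 7 falls of the first 24 h were miR-874-3p (log2 -1.12), miR-3102-3p (-1.01), miR-3093-5p (-0.97), miR-99b-5p (-0.88), miR-501-3p (-0.79), miR-700-3p (-0.78) and miR-346-5p (-0.61), each also called with median-ratio scaling. In miR-99b-5p, the first-day libraries averaged 20626 ± 1435 CPM and the first-night libraries 38017 ± 1561 CPM (SD, n = 3 each; limma adjusted p = 0.00208). In its cluster, let-7e-5p rose by 1.42, and miR-125a-5p, whose annotated start is 618 bases from that of miR-99b, gave -0.27 and was not called (adjusted p = 0.337). The precursors of miR-501-3p and miR-362-5p start 739 bases apart, and miR-362-5p gave -0.39 and was not called (adjusted p = 0.319).

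The difference between the 2 cycles was tested directly, as the day-night difference of the second 24 h minus that of the first, and limma called 10 of 357 miRNAs (2.8%), 9 (2.52%) lower and 1 (0.28%) higher. The difference was lower in let-7a-5p, let-7b-5p, let-7c-5p, let-7d-5p and let-7e-5p, in miR-221-3p and miR-222-3p, and in miR-34b-3p and miR-770-3p, by -1.15 to -1.85 log2 units, and higher in miR-99b-5p by 0.92 (adjusted p = 0.0188 to 0.0483). With quantile normalisation and with median-ratio scaling no miRNA was called (smallest adjusted p for these 10, 0.0726 and 0.113). An unadjusted p under 0.05 was found for 61 and 54 miRNAs under these scalings, against 62 (17.4%) as deposited. Each of the 10 kept its sign, which their choice for large differences in these same libraries favours. The median of all miRNAs was -0.35 as deposited and -0.05 with median-ratio scaling. Leaving out 1 library gave 0 calls without ZT22, ZT30, ZT34, ZT38 or ZT42, and 3 without ZT6, 4 without ZT14, 5 without ZT18, 7 without ZT2, 23 without ZT10 and 30 without ZT26.

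miR-221-3p and miR-222-3p, known for repressing the cell-cycle inhibitor p27 and the receptor Kit, illustrate that difference. miR-221-3p held 663, 497 and 451 CPM at ZT2, ZT6 and ZT10, against 236, 216 and 202 CPM at ZT14, ZT18 and ZT22, and 189, 232 and 228 CPM at ZT26, ZT30 and ZT34, against 204 and 261 CPM at ZT38 and ZT42. The day libraries lay far above the night libraries in the first 24 h, whereas in the second ZT30 and ZT34 lay between them and ZT26 below both. miR-221-5p, the other arm of the hairpin, gave -0.12 in the first 24 h (limma adjusted p = 0.795), and miR-770-5p, the arm opposite miR-770-3p, gave 0.03 (adjusted p = 0.947).

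Without the 3 first-day libraries, the 20 miRNAs with the smallest unadjusted p kept their signs at smaller sizes, the 10 higher by day at 0.05 to 0.34 log2 units and the 10 lower at -0.06 to -0.51, and limma called none of them (smallest adjusted p 0.979). These 20 were chosen on all 11 libraries, among them the libraries kept, so that the choice itself favours kept signs. Without ZT2, ZT6 and ZT26, the ranges were 0.17 to 0.43 and -0.13 to -0.57. Without ZT2, ZT6, ZT10 and ZT26, which leaves 2 day libraries (ZT30 and ZT34), 12 of the 20 changed sign, 7 of the 10 higher by day and 5 of the 10 lower. The ranges were then -0.15 to 0.04 and -0.34 to 0.16, with a smallest limma adjusted p of 0.9999. The call count over all miRNAs was 0 in each of the 3 settings, and it was also 0 with the cycle or linear time as a term. In the second 24 h alone, 10 of the 20 changed sign, 7 of the 10 higher by day and 3 of the 10 lower. The 7 lay at -0.01 to -0.13 log2 units, each within 1 standard error of 0. With median-ratio scaling let-7a-5p, let-7e-5p, let-7i-5p, miR-128-3p, miR-379-5p and miR-382-5p lay above 0 (0.05 to 0.10). Under that scaling let-7c-5p stayed below 0 (-0.01), and miR-191-5p, of the 3, stayed above 0 (0.15).

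A 24 h cosine was fitted as a second description of day and night, with no grouping of the libraries. limma called 0 of 357 miRNAs (smallest adjusted p 0.95), and 6 (1.68%) had an unadjusted p under 0.05. miR-370-3p, an imprinted miRNA, had the smallest (unadjusted p = 0.00767, log2 amplitude 0.38, fitted peak at ZT12.9), with 2605, 3956 and 4769.7 CPM at ZT2, ZT6 and ZT10 and 3272, 3514 and 4145 CPM at ZT26, ZT30 and ZT34 by day. The night libraries held 4868, 4365 and 3108 CPM at ZT14, ZT18 and ZT22 and 5129.6 and 3783 CPM at ZT38 and ZT42. Its levels were highest near the change from day to night in both cycles, and the day-night difference was -0.20. miR-7a-5p and miR-7b-5p (amplitudes 0.55 and 0.54, fitted peaks at ZT1.62 and ZT1.67), let-7f-5p (0.51, ZT3.10) and miR-125a-5p (0.23, ZT13.9) came next among miRNAs above 50 CPM.

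miRNAs linked to the clock in earlier work showed no day-night call. Of 27 listed, 25 were found and 20 tested, 10 of the 20 lay above 0, the median was 0.01, and 1 (miR-181d-5p) had an unadjusted p under 0.05, against 5.6% of all miRNAs. miR-219-5p held 15.1, 10.3 and 10.3 CPM at ZT2, ZT6 and ZT10 and 8.30, 32.2 and 33.2 CPM at ZT26, ZT30 and ZT34 by day. At night it held 26.8, 10 and 18.7 CPM at ZT14, ZT18 and ZT22 and 8.70 and 21.2 CPM at ZT38 and ZT42. The groups overlapped, and the log2 difference was -0.00, with a wide 95% interval from -0.92 to 0.91. miR-132-3p, induced by neuronal activity through CREB, averaged 407 ± 139.8 CPM by day and 390.4 ± 97.2 CPM by night (SD, n = 6 and 5), a log2 difference of 0.02 with a 95% interval from -0.51 to 0.55.

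Among other clock-linked miRNAs, miR-192-5p and miR-194-5p, linked in human cells to the Per genes, gave -0.12 and 0.19. miR-182-5p and miR-96-5p of the sensory cluster gave -0.48 and -0.35 with wide intervals (-1.54 to 0.57 and -1.61 to 0.91). In the first 24 h, 5 of the 20 rose (miR-122-5p, miR-181d-5p, miR-25-3p, miR-7a-5p and miR-185-5p) and 0 fell, while 13.7% of all miRNAs were called in either direction. With median-ratio scaling 2 of the 20 rose and 0 fell, against 25 and 12 of all 357 miRNAs. With quantile normalisation 1 rose and 0 fell, against 23 and 18 of all 357. In the second 24 h none was called, and the list's median was -0.12, against -0.10 over all miRNAs.

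**Figure D4:**
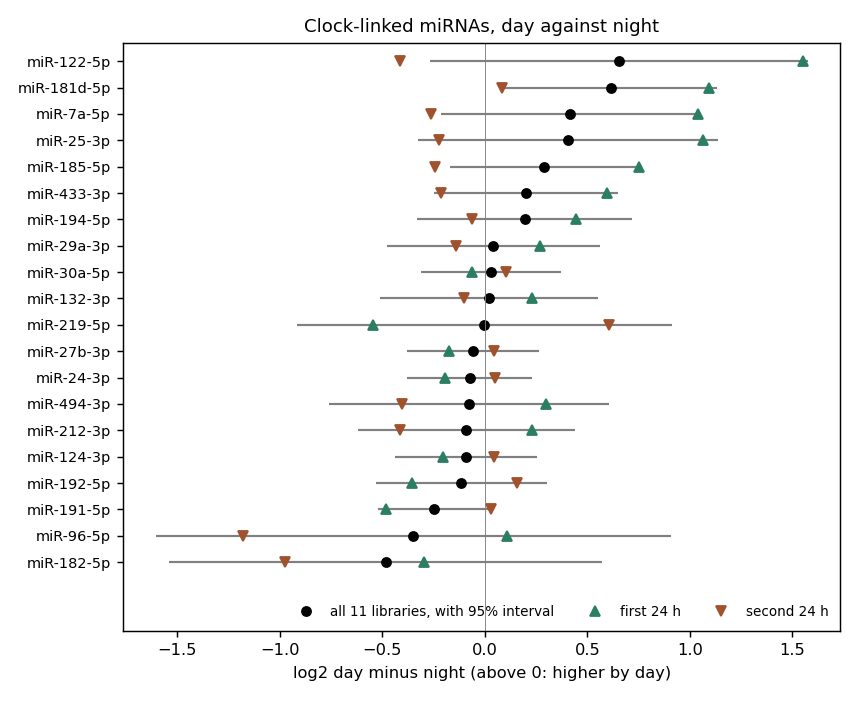
Log2 difference day minus night of the 20 tested clock-linked miRNAs over all 11 libraries (black points with the 95% interval of limma), in the first 24 h (green triangles) and in the second 24 h (brown triangles), ordered by the black points. All intervals but that of miR-181d-5p span 0, and the 5 miRNAs at the top have green triangles at 0.75 to 1.55.

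The other lists were counted in the same way, beside the 5.6% of all miRNAs with an unadjusted p under 0.05. Activity- and light-linked miRNAs had 0 of 12 and neuronal brain miRNAs 2 of 16 tested members with an unadjusted p under 0.05 (miR-128-3p and miR-129-5p), with medians of 0.05 and 0.19. Hypothalamic and endocrine miRNAs had 0 of 12 and a median of 0.08. In the first 24 h 3 of them rose (miR-7a-5p, miR-7b-5p and miR-7a-2-3p) and 1 fell (miR-346-5p), against 11.8% and 1.96% of all miRNAs. With median-ratio scaling 0 of the 12 rose and 1 fell, against 25 and 12 of all 357 miRNAs. With quantile normalisation 1 rose and 1 fell, against 23 and 18 of all 357. In the miR-17/92a cluster and its paralogues it was 1 of 5, miR-20a-5p, with 6.6 to 21.1 CPM by day and 1.40 to 8.60 CPM by night. No member had an unadjusted p under 0.05 in the miR-125 family (3 tested, median -0.17), the miR-30 family (5, -0.02), the miR-29 family (4, 0.05), the miR-23, miR-27 and miR-24 clusters (6, -0.07), the Rtl1-antisense imprinted miRNAs (9, -0.07) or the Htr2c-intron miRNAs (5, 0.11).

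The sensory miR-183, miR-96 and miR-182 cluster and the miR-200 family, which mark the SCN against hypothalamus in the tissue libraries, had medians of -0.48 (3 tested) and -0.84 (4 tested). There was no unadjusted p under 0.05 among them. miR-183-5p held 54.0, 21.5, 33.8, 78.0, 148 and 39.3 CPM in the day libraries from ZT2 to ZT34, against 121, 46.6, 50.2, 206 and 86.0 CPM in the night libraries from ZT14 to ZT42 (log2 -0.77, 95% interval -1.72 to 0.19, limma adjusted p = 0.727). The day and night libraries overlapped, and ZT14, ZT30 and ZT38 were the highest. The same 3 libraries were highest for the summed miR-200 family, with 107.8 CPM at ZT30, against 69.3 CPM at ZT14 and 131.7 CPM at ZT38, and 10.8 to 42.5 CPM in the other 8.

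Markers of other cell types showed no call between day and night in all 11 libraries or in the second 24 h, and in the first 24 h only miR-34b-3p and miR-122-5p were called among them. With quantile normalisation, 1 of 7 tested vascular members fell in the first 24 h and 0 of 3 liver and gut members were called. The summed levels listed next overlapped between day and night over the 11 libraries. So did the choroid plexus and ciliated-cell sums (3651 to 6089 CPM by day and 4105 to 4773 CPM by night), which in the first 24 h alone did not overlap. Oligodendrocyte miRNAs held 1044.5 to 1830.5 CPM by day and 1178 to 1653 CPM by night. Microglia and leukocyte miRNAs held 1558 to 2804.5 and 1676 to 2301 CPM, by day and by night. Erythrocyte miRNAs held 937 to 1402 CPM by day and 904 to 1363.5 CPM by night, and vascular miRNAs 3365 to 6357 and 3258 to 5262 CPM. miR-142-3p and miR-223-3p, which define leukocytes, were each not listed in 5 of 11 libraries and did not exceed 2.50 CPM in any. Muscle miRNAs summed to 40.5 to 68.6 CPM by day and 38.4 to 64.0 CPM by night, and liver and gut miRNAs to 394 to 606 and 437 to 621 CPM.

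The abundant miRNAs that make up most of the signal differed little. miR-125b-5p averaged 134580.2 ± 19482 CPM by day and 146430.4 ± 11045 CPM by night (SD, n = 6 and 5), a log2 difference of -0.13 with a 95% interval of -0.39 to 0.13. miR-125a-5p gave -0.17, miR-26a-5p 0.25, miR-127-3p -0.07, miR-99a-5p -0.14, miR-434-3p 0.04 and the neuronal miR-124-3p -0.09 (95% interval -0.44 to 0.25). Among the 10 most abundant, the largest differences were those of miR-99b-5p (-0.45) and miR-7a-5p (0.41, 95% interval -0.22 to 1.04), and only the interval of miR-99b-5p left out 0.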

How the data were processed

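Small RNA of 11 SCN libraries was sequenced by the authors, who deposited 1 list of mature miRNAs per library. Bowtie and the builds GRCm38 and mm10 are named, per the submitters' processing notes; other steps are not given in the sources used here. The deposited signal is the authors' read number per miRNA scaled to about 1e+07 per library and written as whole numbers; it was divided by 10 for CPM, and a miRNA not listed was taken as 0. Totals were 10009253 to 10013967. Depth was estimated from the spacing of low values, and 0 value columns were left unused. Rounding of the deposited values kept them from being turned back into counts, so no count model was run.

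Tests covered miRNAs whose value reached 100 (10 CPM) in 3 or more of the 11 libraries. They were run with limma 3.58.1 (R 4.3.3; trended variance, two-sided, Benjamini-Hochberg over 357 miRNAs, threshold 0.05) on log2(value + 1), which understates changes of low miRNAs. The fits were day against night, the same within each 24 h, their difference, and a 24 h cosine. Library properties were compared by exact permutation tests with scipy 1.17.1 (Python 3.11.15). Scripts were tested on simulated data. Other pseudocounts, filters, scalings, weights, covariates and left-out libraries were tried.

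Named miRNAs were the 10 with the smallest unadjusted p in each direction averaging at least 500 (50 CPM) in the higher group, the 10 most abundant, up to 4 per list, the 10 smallest p of the cosine, the 5 of the difference between cycles, non-overlapping miRNAs, and their other arms, seed mates and neighbours; others were named after their values were seen. Of the levels set beside the course, those of SCN tissue and hypothalamus come from 2 libraries each. Members and lists were chosen with earlier results of these data known.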

Additional observations from a re-analysis of the deposited data

Results flagged for a closer look

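Among 124 groups examined for a library far from its group, 4 had one, while chance gives about 1 in 20. miR-124-3p stood at 47206 CPM at ZT22, against 35679 to 38228 CPM in the other night libraries. The summed activity- and light-linked miRNAs stood at 22145.5 CPM at ZT2, against 17119.8 to 18288 CPM in the other day libraries. The summed miR-200 family stood at 107.8 CPM at ZT30, against 12.9 to 32.5 CPM in the other day libraries. The summed liver and gut miRNAs stood at 621.3 CPM at ZT14, against 436.7 to 488.9 CPM in the other night libraries.

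The day-night difference of the second 24 h minus that of the first differed from 0 by limma's interaction test in 10 miRNAs. It was -1.15 log2 units for let-7a-5p, -1.59 for let-7b-5p, -1.38 for let-7c-5p, -1.25 for let-7d-5p and -1.45 for let-7e-5p. It was -1.38 for miR-221-3p and -1.39 for miR-222-3p, -1.79 for miR-34b-3p and -1.85 for miR-770-3p. In miR-99b-5p it was 0.92. None of the 10 was called with quantile normalisation or median-ratio scaling.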

How the results depend on the processing

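No paired analysis was possible because the time-course labels carry a time and no replicate number. The planned count models were not run, since the deposited values are not counts. The day-night call count stayed at 0 in every setting over both cycles. Restricted to the first 24 h it was 49, with 41 after quantile normalisation, 37 with median-ratio scaling and 51, 32, 47, 36, 28 and 23 without ZT2, ZT6, ZT10, ZT14, ZT18 or ZT22; these scalings and omissions within a cycle, and the omission of several libraries together, were chosen after seeing the data. The count for the difference between cycles, 10 as reported, was 5 with no filter, 24 with the filter at 1000, 0 with either other scaling, 54 with array weights, 25 without ZT2, ZT6 and ZT26, and 0 to 30 with 1 library left out. The count of non-overlapping miRNAs, 2 as reported, was 0 with the filter at 1000 and with quantile normalisation, 4 without ZT2, ZT6 and ZT26, 5 without ZT2, ZT6 and ZT10, 24 without ZT2, ZT6, ZT10 and ZT26, and 2 to 6 with 1 library left out (6 without ZT34 and 5 without ZT38). Unadjusted p under 0.05 was found for 38 of 756 miRNAs with no filter, 28 with quantile normalisation and 29 with median-ratio scaling. With median-ratio scaling let-7a-5p, let-7e-5p, let-7i-5p, miR-128-3p, miR-379-5p and miR-382-5p lay above 0 in the second 24 h (0.05 to 0.10). As deposited, in the second 24 h alone the sign of the day-night difference turned for let-7a-5p (-0.0238), miR-128-3p (-0.0297), let-7e-5p (-0.0343), let-7c-5p (-0.125), let-7i-5p (-0.0693), miR-379-5p (-0.0626), miR-382-5p (-0.0127), miR-99b-5p (0.039), miR-501-3p (0.00743) and miR-191-5p (0.0289). Without ZT2, ZT6, ZT10 and ZT26 it turned for let-7a-5p (-0.0187), let-7f-5p (-0.154), let-7e-5p (-0.149), let-7c-5p (-0.0788), let-7i-5p (-2.99e-05), miR-379-5p (-0.134), miR-382-5p (-0.125), miR-874-3p (0.16), miR-501-3p (0.00900), miR-346-5p (0.0659), miR-700-3p (0.0959) and miR-342-3p (0.0435); the cause was not tested.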
